A study of Sus scrofa with 6 samples.

Results

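Ubiquitin is a small protein that is fixed to other proteins and marks them for the proteasome, for trafficking or for a change in activity. The genes described here are 112 of the 6765 genes that the array measured under a single symbol. They were chosen by a rule on names, as symbols that start with UBE, USP, TRIM, RNF, MARCH, FBXO, FBXL, FBXW or CUL followed by a digit. Earlier results of these data were known when the choice was made. The 9 name families hold 28 UBE, 16 USP, 11 TRIM, 26 RNF, 7 MARCH, 13 FBXO, 4 FBXL, 4 FBXW and 3 CUL genes. Each gene is represented by the probe set with the highest mean log2 signal over the 6 arrays, out of 181 probe sets for these genes.

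Aortic valve leaflets of adult female pigs were stripped of endothelium with collagenase, kept overnight in serum-containing medium and then cycled in a pressure bioreactor at 1 Hz for 24 h. In the normotensive group the pressure ran from zero to 80 mmHg and in the hypertensive group from zero to 120 mmHg, with 3 samples each. All samples therefore shared the excision, the enzyme treatment, the culture and the bioreactor, and neither an uncultured leaflet nor one without pressure enters the comparison. The labels call the samples biological replicates but do not settle whether they came from separate animals, so the p-values measure only the spread between these samples, which may be technical.

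An activating enzyme (E1) charges ubiquitin, a conjugating enzyme (E2, mostly UBE2 genes) carries it, and a ligase (E3) places it on the target. RING ligases (RNF, MARCH and most TRIM genes) bring the charged E2 to the target. Cullins (CUL) are scaffolds that hold a RING subunit at one end and an exchangeable receptor such as an F-box protein (FBXO, FBXL, FBXW) at the other. Ubiquitin-specific proteases (USP) take ubiquitin off again. In valve interstitial cells, the fibroblast-like cells that keep the leaflet matrix, this system sets the lifetime of signalling proteins and transcription factors.

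The deposited values are signal intensities from the MAS5 algorithm, scaled by array to a common trimmed mean. Hypertensive replicate 2 stood nearest to the normotensive arrays. Over the 14399 probe sets that passed the filter described below, its mean correlation with them was 0.950. The value was 0.817 for hypertensive replicate 1, 0.895 for hypertensive replicate 3 and 0.958 to 0.971 among the normotensive arrays. All 10 measured markers of interstitial cells were over the filter level described below, and their summed signal ran from 100182 to 102348 on the normotensive arrays and from 71503 to 93730 on the hypertensive arrays. The summed signal of 12 endothelial markers was 2544 to 3130 against 2140 to 4437, that of 9 leukocyte markers 2012 to 3726 against 934 to 3103, and that of 10 muscle markers 1254 to 2097 against 469 to 1602. Of these, 4 endothelial, 2 leukocyte and 6 muscle markers were under the filter level on all arrays, among them VWF and KDR, CD3E, and TNNT2 and MYOD1. A sum follows its brightest markers, and 6 of the 12 endothelial ones had higher means and 6 lower. SELP had 95.4, 245 and 90.6 against 2296, 784 and 368, and ERG had 1675, 1142 and 1780 against 899, 1019 and 973. In whole leaflets fewer cells of a type and less RNA per cell cannot be told apart, and the part of cell makeup in the differences below was not tested.

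With all 6 arrays no gene of the ubiquitin families passed the test. Of the 112 genes, 99 passed the filter on low signals, a mean signal of at least 48.5, and 13 did not. In limma with Benjamini-Hochberg adjustment over all 14399 kept probe sets, 0 of the 99 reached an adjusted p of 0.05, and neither did any other probe set, so the share called over all probe sets was 0%. At an unadjusted p under 0.05, 6 genes were higher at hypertensive pressure and 2 were lower. The 6 are 6.06% of the 99, beside 6.85% of all filtered genes, and the 2 are 2.02%, beside 10.2%.

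The families leaned towards higher signal by a small amount. The hypertensive mean was the higher one for 69 of the 112 genes, or 61.6%, beside 47.3% of all 6765 genes. The median log2 difference of the 112 was 0.12, with quartiles at -0.16 and 0.37, and the median over all genes was -0.04, with quartiles at -0.50 and 0.39. The 3 hypertensive arrays gave medians of 0.17, 0.11 and 0.13 for these genes relative to each gene's normotensive mean, and -0.01, 0.04 and -0.09 for all genes. Hypertensive arrays differed more among themselves than normotensive ones: the median SD of the 112 genes was 0.21 on the log2 scale in the normotensive and 0.45 in the hypertensive group, beside 0.27 and 0.53 for all genes.

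In 12 genes of the families all 3 hypertensive arrays lay above all 3 normotensive ones, which is 10.7% of the 112 beside 9.08% of all genes. In 7 genes they all lay below, which is 6.25% beside 11.0%. The 12 were MARCH3, MARCH5, MARCH9, RNF19B, RNF146, RNF149, UBE2F, UBE2K, UBE2L3, CUL1, FBXO21 and TRIM55. The 7 were FBXL2, FBXL4, FBXL5, UBE2T, RNF7, TRIM44 and TRIM59. The first share lies near its background and the second under it.

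**Figure D1:**
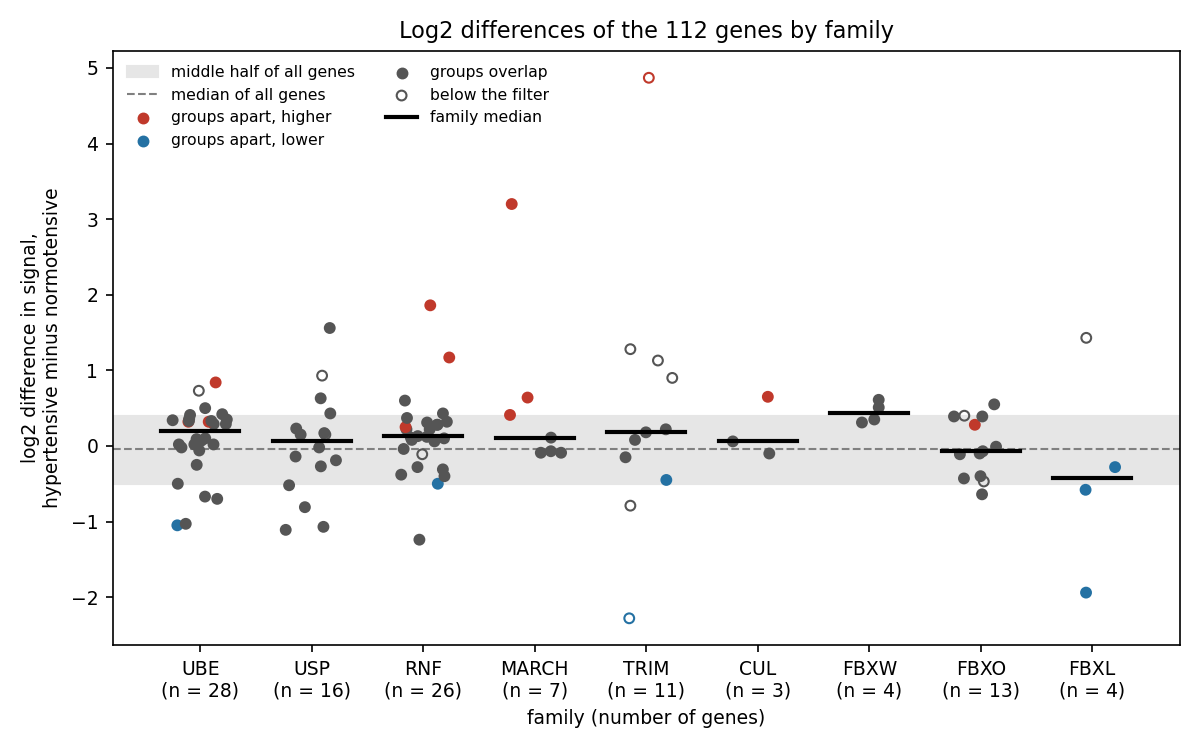
Log2 difference in MAS5 signal, hypertensive minus normotensive (vertical axis), of each of the 112 genes by family (horizontal axis). Points are genes, black bars family medians, colours mark genes whose groups did not overlap, open points genes below the filter, and the grey band spans the quartiles of all genes (-0.50 and 0.39). The FBXW genes all lie above zero and 3 of the 4 FBXL genes below it.

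The families differed in direction. UBE genes had a median of 0.20, with 20 of 28 higher, and within them the UBE2 conjugating enzymes had 0.29, with 18 of 24 higher. RNF genes had a median of 0.13, with 18 of 26 higher, and TRIM genes 0.18, with 7 of 11 higher, of which only 5 genes passed the filter. The TRIM median was -0.0337 with the filter at the 60th percentile, -0.0812 with array weights and 0.014 without hypertensive replicate 2. The MARCH median, 0.11, was close to that of RNF, and the USP and CUL medians were smaller, at 0.07 and 0.06. FBXO genes had a median of -0.07, with 5 of 13 higher. The 4 FBXW genes were all higher, with a median of 0.43, and 3 of the 4 FBXL genes were lower, with a median of -0.43. These are small families, and no test was made of the medians. Without normotensive replicate 3 the UBE median was 0.0747 and the USP median -0.102, without hypertensive replicate 3 the MARCH median was -0.0309, and without hypertensive replicate 1 the FBXO median was 0.0664 and the CUL median -0.0362. Averaging every probe set of a gene, those below the filter included, gave an FBXL median of -0.0986.

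**Figure D2:**
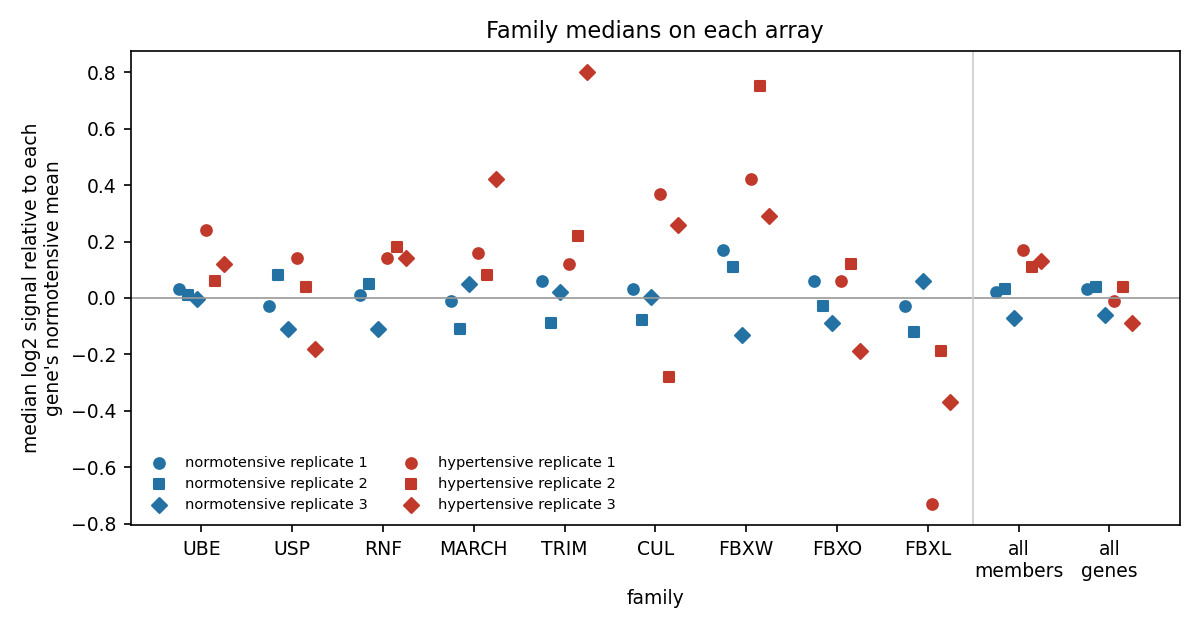
Median log2 signal of each family on each array, relative to each gene's normotensive mean (vertical axis), for the 9 families, all 112 genes and all 6765 genes (horizontal axis). Each point is 1 array. For RNF the 3 hypertensive medians (0.14, 0.18 and 0.14) lie above the normotensive ones, and for FBXL they lie below (-0.73, -0.19 and -0.37), while the USP medians (0.14, 0.04 and -0.18) straddle zero.

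The hypertensive arrays agreed in some families and not in others. The UBE medians were 0.24, 0.06 and 0.12 on hypertensive replicates 1, 2 and 3, and the FBXW medians 0.42, 0.75 and 0.29. For CUL they were 0.37, -0.28 and 0.26. Hypertensive replicate 2 lay within the normotensive range for 43 of the 112 genes, or 38.4%, beside 42.2% of all genes. Among the USP genes it did so for 13 of 16.

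Upstream of the families, the ubiquitin genes and most of the measured activating enzymes showed small differences. Of 6 measured E1 genes, 4 had higher means and the median log2 difference was 0.14. These 6 serve ubiquitin-like modifiers, and no E1 that charges ubiquitin itself was among them. Only MOCS3, which activates the sulphur-carrier modifiers, had groups that did not overlap: its signals were 203, 212 and 227 at normotensive and 794, 375 and 648 at hypertensive pressure, a log2 difference of 1.43 (SE 0.34). Of 17 genes for ubiquitin and its relatives 9 were higher, with a median of 0.06. The ubiquitin genes UBB and RPS27A were at 0.32 (SE 0.16) and 0.15 (SE 0.13), both with overlapping groups. A further kept probe set of RPS27A had the opposite sign. ISG15, an interferon-induced modifier, had signals of 878, 2080 and 543 against 24306, 2190 and 6029, and UBD, a modifier induced by inflammatory cytokines, had 51.0, 48.8 and 55.5 against 940, 221 and 738. Neither passed the test, with limma adjusted p of 0.253 for ISG15 and 0.131 for UBD.

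Among the conjugating enzymes the clearest separation was in UBE2F. UBE2F is an E2 for NEDD8, the modifier that switches cullins on, and acts with the RING subunit RNF7 on CUL5. Its signals were 415, 309 and 345 at normotensive and 747, 597 and 569 at hypertensive pressure. Every hypertensive array was above every normotensive one, and the difference was 1.79-fold (log2 0.84, SE 0.27, limma adjusted p = 0.262).

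Other genes of the NEDD8 route did not follow one direction. UBE2M, the NEDD8 E2 for the other cullins, had a log2 difference of 0.29 (SE 0.34). RNF7 had signals of 1368, 1613 and 1269 against 959, 1211 and 852, so its groups did not overlap and the hypertensive one was the lower, at a log2 difference of -0.50 (SE 0.26, limma adjusted p = 0.347). NEDD8 itself was at -0.29 (SE 0.27), and NAE1 and UBA3, the subunits of its E1, at -0.28 (SE 0.30) and 0.17 (SE 0.19).

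Among the E2s that carry ubiquitin, the differences above zero were smaller. UBE2D2, which serves a wide range of RING ligases, had signals of 6088, 5562 and 7107 against 9769, 6413 and 9081. The groups overlapped only through hypertensive replicate 2, and the log2 difference was 0.41 (SE 0.21). Both further kept probe sets of UBE2D2 were also higher, by 0.29 and 0.30. UBE2K, which builds the chains read by the proteasome, had 2111, 1709 and 2040 against 2743, 2117 and 2474, with a log2 difference of 0.32 (SE 0.23). Its groups were apart by a narrow gap.

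UBE2L3, the E2 of HECT and RBR ligases, had 255, 287 and 271 against 363, 323 and 330. Its log2 difference was also 0.32 (SE 0.25), but a second kept probe set gave -0.14. UBE2N and its partner UBE2V1, which build the chains used in inflammatory signalling, had log2 differences of 0.10 (SE 0.25) and 0.09 (SE 0.19). UBE2B, an E2 of DNA repair and of muscle protein loss, was at 0.33 (SE 0.23) and UBE2E3 at -0.02 (SE 0.24).

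UBE2T and UBE2C, both tied to dividing cells, had lower means. UBE2T, the E2 of the Fanconi anaemia repair pathway, had signals of 432, 382 and 445 against 87.9, 342 and 276. The groups did not overlap, with hypertensive replicate 1 far below the others, and the log2 difference was -1.05 (SE 0.49, limma adjusted p = 0.315). Its second kept probe set gave -0.54. UBE2C, the E2 of the anaphase-promoting complex, had 186, 151 and 355 against 113, 109 and 201, which overlap, with a log2 difference of -0.67 (SE 0.42).

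The remaining UBE genes are ligases and chain-extending enzymes. UBE4B, a U-box enzyme that lengthens chains, had 512, 430 and 434 against 110, 471 and 215. Hypertensive replicate 2 lay inside the normotensive range and the other two far below it, and the log2 difference was -1.03 (SE 0.49). UBE3A, a HECT ligase, was at 0.07 (SE 0.21), and UBE4A was at -0.50 (SE 0.47).

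MARCH3 had the smallest p of the families. It is a membrane-anchored RING ligase of endosomes that acts on receptor traffic. Its signals were 179, 128 and 137 at normotensive and 3185, 963 and 799 at hypertensive pressure. The groups stood well apart, and the mean was 9.21-fold higher (log2 3.20, SE 0.51), with an unadjusted p of 0.000214 that did not survive adjustment over all probe sets (limma adjusted p = 0.141). Leaving out hypertensive replicate 1, 2 or 3 gave folds of 5.99, 10.9 and 12.

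The other MARCH ligases showed smaller differences. MARCH5, of the outer mitochondrial membrane, had 232, 227 and 332 against 564, 336 and 346, with a log2 difference of 0.64 (SE 0.32). The gap between its groups was narrow. MARCH9, a ligase of the Golgi and endosomes, had 211, 206 and 220 against 318, 224 and 317, with a log2 difference of 0.41 (SE 0.28). MARCH2, MARCH7 and MARCH8 lay between -0.09 and 0.11, and each of these turned sign when some array was left out. MARCH6, a ligase of the endoplasmic reticulum, was at -0.09 (SE 0.39) on its representing probe set, and its 3 further kept probe sets gave -2.83, -0.84 and 0.18.

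Among the RNF ligases RNF149 and RNF19B stood out. RNF149, a transmembrane RING ligase, had signals of 1043, 984 and 1067 against 3094, 1211 and 3362. Hypertensive replicates 1 and 3 were high and replicate 2 lay just over the normotensive range, and the difference was 2.26-fold (log2 1.17, SE 0.40, limma adjusted p = 0.266). Its 2 further kept probe sets were also higher: one by 2.47 on the log2 scale, with groups apart and an unadjusted p of 0.000247, and the other by 0.86.

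RNF19B, an RBR ligase first described in natural killer cells, had 234, 280 and 152 against 2786, 330 and 516. The groups did not overlap, but most of the difference sat in hypertensive replicate 1. The mean was 3.63-fold higher (log2 1.86, SE 0.72, limma adjusted p = 0.278) and 1.92-fold higher without that array. Leaving out hypertensive replicate 2 in its place gave 5.58-fold.

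RNF128, a ligase known for restraining T cells, had the lowest log2 difference of the RNF genes and, among those that passed the filter, the widest spread on hypertensive arrays. Its signals were 923, 987 and 1030 against 130, 388 and 1414. Hypertensive replicate 3 was above all normotensive arrays and the other two were below them, with a log2 difference of -1.24 (SE 0.74). RNF146, which recognises poly(ADP-ribose) on its targets, had 4433, 4739 and 4653 against 5225, 5016 and 6316, a small difference of 0.25 (SE 0.18) with groups apart.

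RNF40, a ligase of histone H2B, was at 0.60 (SE 0.33), with overlapping groups. RNF114 was at 0.28 (SE 0.26), with a second probe set at 1.20 and groups apart on that one. RNF13 was at 0.08 (SE 0.20), RNF185, a ligase of endoplasmic reticulum quality control, at 0.31 (SE 0.26), and RNF135, which acts on the RNA sensor RIG-I, at -0.38 (SE 0.38).

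**Figure D3:**
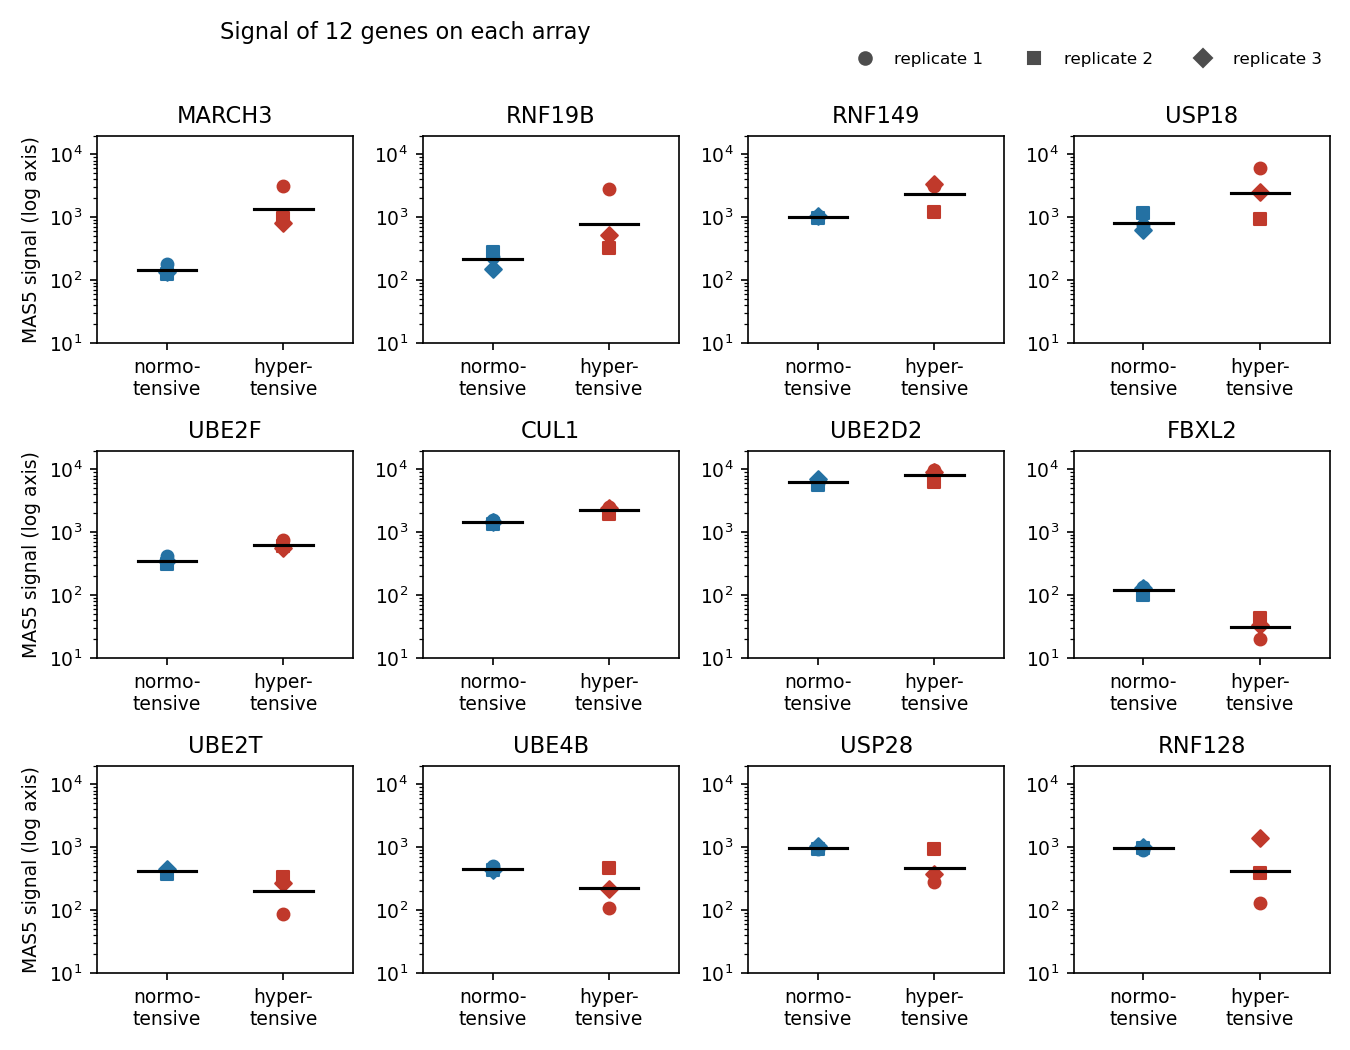
MAS5 signal on a log axis (vertical) of 12 genes on each array, by pressure group (horizontal). Points are arrays, with a shape for each replicate number, and black bars are means of log2 signal; the groups are apart for MARCH3, RNF19B, RNF149, UBE2F, CUL1, FBXL2 and UBE2T and overlap for the others.

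The TRIM family was mostly dim in these leaflets. TRIM44, which has a TRIM-like fold without the RING, had 1435, 1279 and 1383 against 855, 1009 and 1163. All hypertensive arrays were below the normotensive ones, with a log2 difference of -0.45 (SE 0.25, limma adjusted p = 0.363). TRIM52 was at -0.15 (SE 0.29), TRIM27 at 0.18 (SE 0.35) and TRIM13, a ligase of the endoplasmic reticulum, at 0.22 (SE 0.38), all with overlapping groups. The further kept probe sets of TRIM52 gave -0.17 with overlap and 0.70 with groups apart.

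Below the filter, TRIM55, a muscle ligase, had 0.403, 0.732 and 1.24 against 33.6, 14.5 and 18.7. Every value is under the filter level, so no fold is given. TRIM59 had 53.9, 21.0 and 43.1 against 1.72, 16.5 and 15.1, with only 1 array over that level. TRIM26 was also dim, at 12.4, 5.01 and 4.62 against 23.3, 9.60 and 18.1.

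Of the 3 measured cullins only CUL1, the scaffold of the SCF ligases that use F-box receptors, had groups apart. Its signals were 1544, 1377 and 1464 against 2529, 1951 and 2446, with little spread in either group. The difference was 1.57-fold (log2 0.65, SE 0.23, limma adjusted p = 0.269). CUL2, the scaffold of the VHL ligase, was at 0.06 (SE 0.26), and CUL4A, which uses DDB1 as its adaptor, at -0.10 (SE 0.29).

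Among the F-box receptors that CUL1 serves, all 4 FBXW genes had higher means, as CUL1 did, but with overlapping groups. Of the others, 3 of 4 FBXL genes and 8 of 13 FBXO genes had lower means. FBXL2 had the smallest p among the lower genes. It is a lipid-anchored receptor, and its signals were 133, 99.3 and 129 at normotensive and 20.3, 43.2 and 34.0 at hypertensive pressure. All 3 hypertensive values were under the filter level, so the fold is a bound, at least 2.46-fold lower (fitted log2 difference -1.94, SE 0.39, unadjusted p = 0.000995, limma adjusted p = 0.194).

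FBXL4, which limits the removal of mitochondria, had 230, 256 and 215 against 98.3, 198 and 196. FBXL5, the iron-sensing receptor for iron regulatory proteins, had 1638, 1727 and 1703 against 1453, 1531 and 1199. Both had groups apart, with log2 differences of -0.58 (SE 0.35) and -0.28 (SE 0.23). The fourth, FBXL16, was below the filter.

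FBXW7, the receptor for cyclin E, MYC and NOTCH, had 684, 498 and 499 against 1161, 476 and 888. Hypertensive replicate 2 was below the normotensive range while the other two were above it, with a log2 difference of 0.51 (SE 0.37). Its 3 further kept probe sets were all higher, at 0.80 and 0.84 with groups apart and 0.24 with overlap. FBXW5 was at 0.61 (SE 0.40), FBXW4 at 0.35 (SE 0.32) and FBXW9 at 0.31 (SE 0.43). Their normotensive mean signals were 51.1, 63.8 and 51.7, near the filter level of 48.5. The further kept probe sets of FBXW4 and FBXW9 were lower, at -0.71 and -0.17. Without hypertensive replicate 2, FBXW9 was at -0.03.

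In the FBXO family no gene had a large difference. FBXO32, the muscle-wasting receptor also called atrogin-1, had 1078, 1442 and 794 against 425, 896 and 861. These overlap, with a log2 difference of -0.64 (SE 0.38). FBXO21 had 1298, 1189 and 1277 against 1505, 1511 and 1546, with a narrow spread and groups apart at 0.28 (SE 0.22), but its 3 further kept probe sets gave -0.94, -0.46 and 0.27. FBXO7, which acts in mitochondrial quality control, was at 0.55 (SE 0.38), FBXO38 at 0.39 (SE 0.29), FBXO6, a receptor for glycoproteins, at 0.39 (SE 0.35), FBXO22 at -0.43 (SE 0.31) and FBXO11 at -0.01 (SE 0.25).

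No gene of the USP family of removal enzymes had groups apart. USP18, which strips ISG15 from proteins, had signals of 758, 1157 and 639 at normotensive and 6020, 942 and 2521 at hypertensive pressure. Hypertensive replicates 1 and 3 were high and replicate 2 lay inside the normotensive range. The mean was 2.94-fold higher (log2 1.56, SE 0.61, limma adjusted p = 0.278), or 1.87-fold and 4.73-fold once hypertensive replicates 1 and 2, in that order, were left out singly. ISG15, given above, had its highest signal on the same array as USP18, hypertensive replicate 1. For 54.0% of all genes that array was the hypertensive one farthest from the normotensive mean.

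USP28, known for keeping MYC stable, had 925, 941 and 1053 against 279, 952 and 377. Hypertensive replicate 2 was inside the normotensive range and the other two were far below it, with a log2 difference of -1.07 (SE 0.44, limma adjusted p = 0.288). USP8, which acts on receptors in endosomes, showed the same layout, with 1547, 1541 and 1785 against 870, 1752 and 956 and a log2 difference of -0.52 (SE 0.32). USP21, a histone H2A protease, had 130, 188 and 96.7 against 54.4, 136 and 58.8, at -0.81 (SE 0.45).

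USP3, another histone H2A protease, had 368, 306 and 275 against 513, 341 and 652, at 0.63 (SE 0.32). Here too only hypertensive replicate 2 lay inside the normotensive range. USP10 was at -0.14 (SE 0.21), with a further kept probe set at 0.91 and overlapping groups on both. USP24 was at -0.27 (SE 0.30).

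Leaving out hypertensive replicate 2 changed the calls. The fit on the other 5 arrays called 13 of the 99 filtered genes at a limma adjusted p of 0.05. The 8 that rose were MARCH3 (log2 3.45), RNF19B (2.48), USP18 (2.24), RNF149 (1.65), UBE2F (0.88), USP3 (0.88), CUL1 (0.77) and UBE2D2 (0.60). The 5 that fell were FBXL2 (-2.18), USP28 (-1.58), UBE4B (-1.57), USP21 (-1.23) and USP8 (-0.83). The FBXL2 value is only a fitted one, since all its hypertensive signals lay under the filter level.

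These calls stand beside many others over the array. The 8 are 8.08% of the 99, where 10.3% of all filtered genes were called higher in that fit, and the 5 are 5.05%, where 15.7% were called lower. USP genes made up 5 of the 13, with 2 higher and 3 lower. These are 14.3% and 21.4% of the 14 filtered USP genes, beside the same 10.3% and 15.7%. The array left out had lain within the normotensive range for 13 of the 16 USP genes. The limma adjusted p of the 13 called genes in that fit ran from 0.00368 for RNF149 to 0.0476 for UBE2F. Over all alternatives tried, their adjusted p ran from 0.000724 to 0.744. An array chosen for standing near the other group gives calls that are not independent of that choice.

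**Figure D4:**
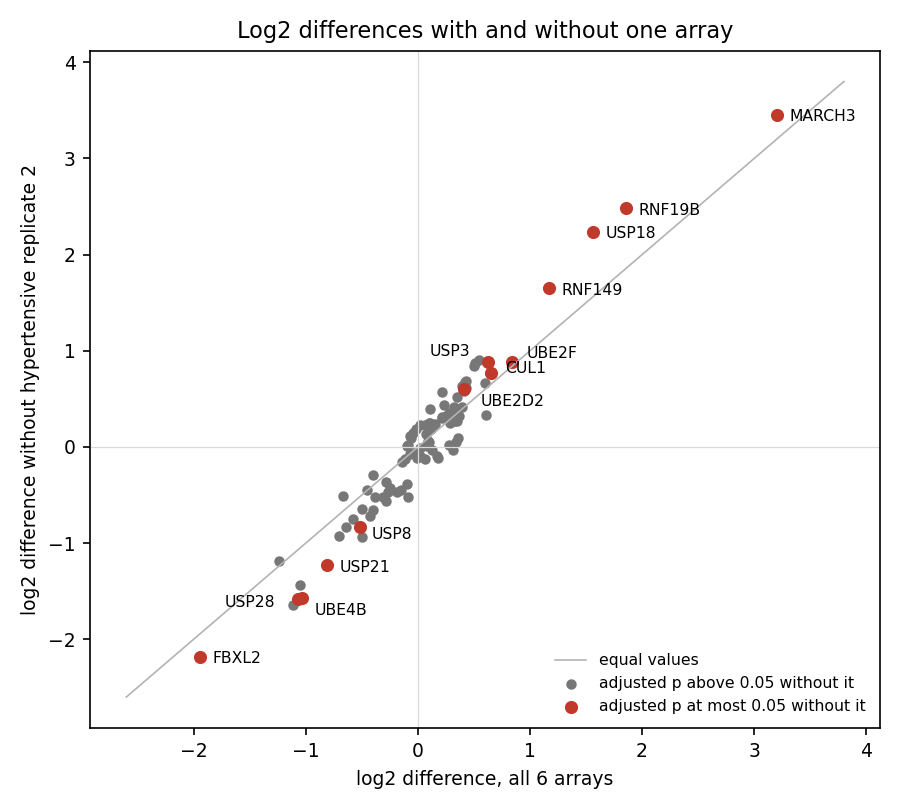
Log2 difference, hypertensive minus normotensive, of the 99 filtered genes with all 6 arrays (horizontal axis) and without hypertensive replicate 2 (vertical axis). Points are genes, the line marks equal values, and the 13 genes called at a limma adjusted p of 0.05 without that array are red and named, from MARCH3 at 3.45 to FBXL2 at -2.18. All hypertensive signals of FBXL2 lay under the filter level.

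Other genes of the pathway, outside the name families, are given from lists by role. Of 19 other deubiquitinases and ubiquitin-like proteases 9 were higher, with a median of -0.04. Among these VCPIP1, of Golgi reassembly, was at 1.45 (SE 0.52), and STAMBPL1, STAMBP and BRCC3, proteases that cut chains linked through lysine 63, were at -1.48 (SE 0.43), -0.86 (SE 0.34) and -0.92 (SE 0.39), all with groups apart. Of 9 HECT and RBR ligases 8 were lower, with a median of -0.32, beside 52.7% of all genes that were lower. In 4 of the 9 the groups were apart and lower, beside 11.0% of all genes: WWP1 at -1.20 (SE 0.47), WWP2 at -0.45 (SE 0.26), HERC1 at -0.33 (SE 0.26) and ITCH at -0.32 (SE 0.23). The exception was ARIH2, an RBR ligase that works with neddylated CUL5, at 1.24 (SE 0.41). None of these passed the test with all arrays.

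The partners of the cullins were spread widely. Of 19 partners 11 were higher, with a median of 0.13. DDB2, the ultraviolet-damage receptor, had signals of 880, 841 and 691 against 72.7, 625 and 158, a log2 difference of -2.05 (SE 0.68), or -1.35 without hypertensive replicate 1 and -2.90 with replicate 2 left out. CAND2, an exchange factor of cullin receptors, had 211, 232 and 295 against 10.8, 179 and 34.0, at -2.59 (SE 0.87), or -1.64 and -3.67 with the same arrays left out. In both genes hypertensive replicate 1 was lowest and replicate 2 nearest to the normotensive arrays. ASB8 was at -0.93 (SE 0.35) and SOCS6 at 1.12 (SE 0.38). Of 7 subunits of the COP9 signalosome, which removes NEDD8 from cullins, 5 were lower, with a median of -0.29. COPS5, its catalytic subunit, was at -0.36 (SE 0.22), but a further kept probe set of COPS5 had the opposite sign. Of 20 further RING and U-box ligases 12 were higher, with a median of 0.08. DTX3L, the partner of PARP9, was at 1.75 (SE 0.53) and RFWD2, also called COP1, at -0.58 (SE 0.25).

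Grouped by the processes they serve, the genes of the families gave small medians in most lists. The 14 members acting in NF-kB signalling had a median of 0.18, with 10 higher, and the 15 of endoplasmic reticulum-associated degradation 0.22, with 10 higher. The 14 of chromatin and DNA repair had 0.10, with 9 higher. The 5 of muscle wasting had 0.28, with 3 higher, but without TRIM55, which lies under the filter level on all arrays, 2 of 4 were higher and the median was -0.18. The 3 that act on other modifiers, UBE2F, UBE2M and USP18, were all higher, with a median of 0.84. The 4 linked to interferon or ISG15 had a median of 0.78, with 3 higher, and 0.28 without TRIM26, which lies under the filter level on all arrays. The 7 of the mitotic cycle had -0.67, with 5 lower, and -0.38 without TRIM59, which did not pass the filter; CUL1 and FBXW7 were the higher ones. Lists overlap, none holds a gene called with all 6 arrays, and the median over all genes is -0.04.

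The choice of probe set mattered for some genes. Of the 112 genes, 47 had a total of 69 further probe sets, of which 47 passed the filter. Of those, 28 had the sign of the representing probe set and 19 the opposite sign. RNF149, FBXW7, UBE2D2 and UBE2T had the same sign on every kept probe set. MARCH6, FBXO21, UBE2L3, TRIM52, USP10, FBXW4 and FBXW9, among others, did not. MARCH3, FBXL2, RNF19B, CUL1, UBE2F and USP18 had no further kept probe set, so their values rest on 1 probe set each.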

How the data were processed

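The Affymetrix Porcine Genome Array measured RNA of 6 samples of porcine aortic valve leaflets. The authors deposited 1 linear signal intensity for each probe set and array, made with GCOS and MAS5 per the submitters' processing notes (version not given in the sources used here). Every array had a trimmed mean of 500 and a median between 88.1 and 99.2, so a shift of most transcripts in one direction would not be seen. The number of arrays and the spread among the hypertensive ones limit the precision.

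Of 24123 probe sets, 124 controls were left out. Symbols came from the platform annotation, which gives 1 symbol for 10069 probe sets, several for 198 and none for 13732. Of the 112 genes, 106 matched the current annotation by gene number, all with the same symbol. Deposited intensities were analysed as log2 values, without a pseudocount. Probe sets at or above the 40th percentile of mean log2 intensity, a signal of 48.5, were kept, and limma 3.58.1 in R 4.3.3 (lmFit, eBayes with trend, 2-sided) compared the groups, adjusted by Benjamini-Hochberg over the 14399 kept probe sets. Fold changes are ratios of geometric means. Where a whole group lay under the filter level, the fold is a bound, the other group's mean over that level.

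The genes, lists and tests were chosen with earlier results of these data known. The text names filtered genes with groups apart and an unadjusted p under 0.01, the 2 smallest p in each direction and the 2 highest mean signals in each family, and up to 4 genes of smallest p in each list. Of genes outside the families so chosen, only some with groups apart, NAE1 and UBA3 are printed. MARCH9, UBE2L3, USP8, TRIM26, TRIM55, TRIM59, UBE2N, UBE2V1, UBE3A, UBE4A, ITCH, HERC1 and NEDD8 were chosen after their values were seen. So were UBB, RPS27A, FBXW9, SELP and ERG. An exact permutation test of 3 against 3 cannot go below 0.1, so none was used.

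The test was tried on simulated data modelled on the 14399 probe sets, with 10 runs that each changed 200 of them: it found 0.05% of those shifted by 1 on the log2 scale, 49.5% of those shifted by 2 and 91.0% of those shifted by 4. Each probe set had the same simulated spread in both groups, while the real hypertensive arrays differed more among themselves. Alternatives were array weights, a replicate block, quantile normalization, a shift of medians, pseudocounts of 16 and 64, eBayes without trend, no filter or one at the 60th percentile, a mean over all of a gene's probe sets with 1 symbol (below the filter included), and leaving out single arrays.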

Additional observations from a re-analysis of the deposited data

How the results depend on the processing

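Small differences limit what can be said of these genes. With 3 arrays a group, 0.05% of simulated log2 changes of 1 were recovered, though the simulation gave both groups the same spread. Hypertensive replicate 2 also stood near the normotensive arrays. Array weights ran from 0.195 for that array and 0.289 for hypertensive replicate 1 to 6.96 for normotensive replicate 1. With them 5639 probe sets were called. So were 28 of the 99 filtered genes of the families, beside 2146 of all 5271 filtered genes. The 28 include all 13 called without hypertensive replicate 2. Leaving out each array in turn gave 0 to 3505 called probe sets and 0 to 13 called genes, with no called gene in any such fit other than the one without hypertensive replicate 2. The cause was not tested. With the replicate block 0 probe sets and 0 genes were called. The deviations of same-numbered arrays correlated at 0.0593, 0.0720 and 0.226, each array best with its own number, which is only a hint of pairing. The search for promoter motifs was not run, and no sequence was used here.

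The genes with groups apart numbered 14 to 31 higher and 7 to 19 lower when an array was left out, since fewer arrays overlap less. With the mean of all probe sets 4 were lower. The shares over all genes in those fits are not given here, so these counts are not a result about these genes. The median over all the families was 0.177 after the median shift, which moved the median of all genes from -0.04 to 0.02. The UBE median was 0.128 with a pseudocount of 64, 0.103 with the filter at the 60th percentile, 0.0965 with array weights, 0.101 with the mean of all probe sets and 0.0747 to 0.209 with an array left out. The USP median was -0.121 with weights and -0.102 to 0.122 with an array left out. The RNF median was 0.188 after quantile normalization. The MARCH median was 0.263 with the stricter filter, 0.546 with weights and -0.0309 to 0.4 with an array left out. The FBXO median was -0.252 with the mean of all probe sets and -0.224 to 0.0664 with an array left out, and the FBXL median -0.0986 with that mean.

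Of 1452 values of 92 named genes under the alternatives, 42 in 21 genes turned sign. A call was gained in 76 (44 with weights, 32 without hypertensive replicate 2). No call could be lost, since the main fit had called no probe set. UBB, RPS27A, FBXW9, SELP and ERG are not among the 92. With array weights the log2 difference was 0.17 for CUL4A, -0.07 for FBXO6, 0.15 for MARCH2, 0.14 for MARCH8, -0.02 for RNF114, 0.11 for RNF128, -0.26 for TRIM27, 0.31 for UBE2E3 and -0.12 for UBE2M. With the mean of all probe sets it was 0.05 for CUL4A, 0.11 for FBXO11, -0.32 for FBXO21, -0.18 for FBXW4, 0.13 for MARCH2, -0.07 for MARCH7, 0.13 for TRIM52, 0.11 for UBE2E3, 0.38 for USP10 and 0.09 for WWP2. The median shift gave 0.05 for FBXO11 and 0.04 for UBE2E3, and quantile normalization 0.0036 for MARCH2. With an array left out the range was -0.10 to 0.23 for CUL2, -0.28 to 0.01 for CUL4A, -0.14 to 0.12 for FBXO11, -0.24 to 0.02 for MARCH2, -0.52 to 0.29 for MARCH6, -0.15 to 0.40 for MARCH7, -0.15 to 0.04 for MARCH8, -0.08 to 0.57 for TRIM13, -0.11 to 0.41 for TRIM27, -0.45 to 0.05 for TRIM52, -0.22 to 0.19 for UBE2E3, -0.10 to 0.25 for UBE2N and -0.04 to 0.14 for UBE3A.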
